A study of Mus musculus with 4 samples.

Results

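The 4 Hox gene clusters of the mouse were examined for binding of the insulator protein CTCF in liver at 2 times of day. The clusters were represented by 38 genes, from Hoxa2 to Hoxa13, Hoxb1 to Hoxb13, Hoxc4 to Hoxc13 and Hoxd1 to Hoxd13. Each cluster was taken from the first to the last of these genes in the GENCODE annotation of the mm9 genome and extended by 100 kb on both sides. The resulting windows held 16 of the 10113 CTCF sites listed at ZT0 and 10 of the 6799 sites listed at ZT12, which lay at 17 separate positions. A listed site was a CTCF ChIP-seq peak, a stretch of genome over which DNA recovered with an antibody to CTCF was sequenced more often than the background.

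Hox genes encode homeodomain transcription factors that set position along the body axis of the embryo. In each cluster the genes stand in the order in which they are used, with the paralogues of high number at the posterior end and those of low number at the anterior end, and they are transcribed in the same direction. CTCF binds a long, asymmetric DNA motif, halts the cohesin complex as it extrudes loops of chromatin, and is known in embryonic tissue to separate active from silenced domains within Hox clusters.

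The study mapped chromosome contacts and CTCF in the liver over the day. The livers came from wild type male C57BL/6 mice that were 8 weeks old, fed ad libitum and kept under 12 h of light and 12 h of darkness. There were 2 biological replicates at ZT0 (lights on) and another 2 at ZT12 (lights off). The same pooled livers served for the contact maps, so a replicate stood for more than 1 animal. The authors gave a single list of peak positions for each time, described as covering both replicates and as passed through the motif search program FIMO, without saying how the replicates were joined.

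The lists gave positions only. They held no peak height, strand or replicate, so neither the depth behind a site nor how far the replicates differ could be measured. The lists analysed here hold fewer sites than the study counted in all, so they are only part of the called peaks, and how that part was selected is not given in the sources used here. Every density, distance and shared percentage is that of these lists. A position missing from a list was therefore not shown to be unbound, and "empty", "no site", "shared" and "ZT0-only" describe the lists alone. The comparison of ZT0 with ZT12 asked which sites of the Hox clusters were listed at both times of day. It was made by overlap of at least 1 bp, and sites are not replicates, so no test of a difference between times was made. Confidence intervals are exact (Clopper-Pearson) 95% intervals and cover counting error only.

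Of the 16 ZT0 sites in the Hox windows, 9 overlapped a ZT12 site (56.2%, 95% interval 29.9 to 80.2%), beside 56.2% of all listed ZT0 sites. Of the 10 sites listed at ZT12, 9 were shared with ZT0 (90.0%, 55.5 to 99.7%), beside 83.6% of all listed ZT12 sites. Both shares in the Hox windows had intervals that held the value over all sites, so the overlap between times gave nothing particular to the clusters. Inside the clusters, from first to last gene, 13 sites were listed at ZT0 and 8 of them were shared (61.5%, 31.6 to 86.1%). All 8 sites listed inside the clusters at ZT12 were shared (63.1 to 100%). The sole ZT12-only site lay in the flank of HoxB, at chr11:96006921-96007201 in an intron of Ttll6, 48.6 kb from the start of Hoxb13. The ZT12 sites inside the clusters were thus a subset of the ZT0 sites.

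Taken over the 4 clusters, the sites were denser inside the clusters than in the flanks. At ZT0 the 485.0 kb inside the clusters held 26.8 sites per Mb, and the 800.0 kb of flanks held 3.75 per Mb. The density over all chromosomes with listed sites was 3.83 per Mb at ZT0, close to that of the flanks. At ZT12 the values were 16.5 per Mb inside, 2.50 in the flanks and 2.58 over all chromosomes. The chromosomes that carry the clusters ranged at ZT0 from 3.46 sites per Mb on chromosome 6, with HoxA, to 7.30 on chromosome 11, with HoxB. Hox clusters are crowded with genes, and per gene the order was the reverse. There were 0.317 ZT0 sites for each of the 41 protein-coding genes inside the clusters and 0.452 for each of the 22350 protein-coding genes of the annotation. At ZT12 these values were 0.195 and 0.304. The clusters were therefore rich in sites for their length and not for their number of genes.

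HoxD had the highest density inside the cluster at ZT0, with 4 sites in 96.8 kb (41.3 per Mb). HoxA had 3 in 98.5 kb (30.4 per Mb) and HoxB had 5 in 173.9 kb (28.7 per Mb). HoxC stood lowest with 1 site in 115.7 kb (8.64 per Mb). Of the flanks, those of HoxB held 10.0 sites per Mb and those of HoxD 5.00, and those of HoxA and HoxC held none, so the flanks of HoxB were denser than the inside of HoxC. With counts this small the order of HoxA, HoxB and HoxD carries little weight. At ZT12 HoxA kept 2 of its 3 sites, HoxB 3 of 5, HoxC its only site and HoxD 2 of 4.

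HoxA (chr6:52112350-52210874) is transcribed from the minus strand, with Hoxa13 at the higher coordinate. Its 3 sites all lay within 1 kb of an annotated start of a Hox transcript, and none lay in the 100 kb on either side. Distances are from the midpoint of a site to the nearest annotated transcript start of the gene. The site at chr6:52171549-52172073 lay 0.0420 kb from the most upstream of 5 transcript starts of Hoxa7, in the 5′ UTR of that transcript's first exon, and 1.42 to 4.36 kb from the others. It was the widest of the Hox sites, at 525 bp, wider than 95.7% of all ZT0 sites, and its ZT12 counterpart at chr6:52171580-52172037 was the widest at that time too, at 458 bp. The shared site at chr6:52190365-52190781 lay 0.221 and 0.280 kb from the upstream starts of Hoxa10, also in a 5′ UTR, and at least 5.63 kb from the other 3. The sites of Hoxa7 and Hoxa10 were thus at upstream, alternative first exons. The ZT0-only site at chr6:52154496-52154829 lay between Hoxa5 and Hoxa6, 0.0760 kb from the start of Hoxa5. The annotation also gives a long transcript of Hoxa3 there, which spans this site, and a noncoding gene on the opposite strand. No site was listed near Hoxa2 and Hoxa4 at the anterior end or near Hoxa13 at the posterior end, where the nearest ZT0 sites were 39.2, 12.9 and 20.2 kb from the starts. Beyond the window, the next ZT0 sites lay 304 kb from the cluster on the anterior side and 464 kb on the posterior side, which left the HoxA sites as an isolated group.

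HoxB (chr11:96055630-96229570) is transcribed from the plus strand and carries a long interval between Hoxb13 and Hoxb9. This interval held a ZT0-only site at chr11:96096262-96096624 and a shared site at chr11:96122889-96123188. The shared site was in coding sequence of the gene model Gm53, 9.73 kb before the start of Hoxb9. The ZT0-only site at chr11:96140150-96140392 lay between Hoxb9 and Hoxb8, 2.95 kb before the Hoxb8 start. A shared site at chr11:96155918-96156192 was in an intron of Hoxb6, and another at chr11:96164382-96164649 was in the UTR of the first exon of Hoxb5, 0.606 kb from its start. These last sites were the closest pair in the Hox windows, 8.19 kb apart at ZT0 and 8.32 kb apart at ZT12.

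From the Hoxb5 site onward the anterior part of HoxB was empty. The next ZT0 site lay 135 kb away at chr11:96300126-96300362, beyond the end of the cluster, and this stretch contains Hoxb4, Hoxb3, Hoxb2 and Hoxb1. The starts of these genes were 13.5, 20.1, 48.4 and 62.6 kb from the nearest ZT0 site, which for all of them was the site in Hoxb5. The posterior flank of HoxB held the shared site at chr11:95988300-95988597, 67.2 kb before Hoxb13 and between genes.

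HoxC (chr15:102751534-102867274) had a single listed site in its whole window, and it was shared. It lay between Hoxc9 and Hoxc8 at chr15:102817911-102818154, 3.02 kb before the start of Hoxc8, in an intron of the gene model Gm20398. The posterior genes of HoxC lay far from it, with the start of Hoxc12 at 50.8 kb and that of Hoxc13 at 66.5 kb, the greatest distance of any of the 38 genes at either time. The ZT12 site at chr15:102817877-102818141 was 21 bp wider than the ZT0 site.

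HoxD (chr2:74506367-74603200) had sites spaced 13.0 to 17.4 kb apart from the posterior flank to Hoxd3. The outermost, at chr2:74493474-74493689, was ZT0-only and lay in an exon of Evx2, a homeobox gene next to Hoxd13 that is transcribed in the opposite direction. The next was shared and lay between Hoxd13 and Hoxd12 at chr2:74511061-74511376. A ZT0-only site at chr2:74524411-74524666 was in an exon of Hoxd11, in its 3′ UTR. A shared site at chr2:74540351-74540610 lay between Hoxd9 and Hoxd8. The most anterior, ZT0-only and at chr2:74553873-74554197, was in an intron of Hoxd3, 4.05 kb from the start of that gene, and 0.0180 kb from the start of an antisense noncoding gene. At ZT12 the remaining pair of HoxD sites was 28.8 kb apart. No site was listed from Hoxd4 to Hoxd1, and the start of Hoxd1 was 47.0 kb from a ZT0 site. On the posterior side of HoxD the next ZT0 site lay 1083 kb from the cluster, and on the anterior side 199 kb.

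Seen from the genes, 7 of the 38 had the midpoint of a ZT0 site within them, namely Hoxa3, Hoxa7, Hoxa10, Hoxb5, Hoxb6, Hoxd3 and Hoxd11. At ZT12 there were 4, Hoxa7, Hoxa10, Hoxb5 and Hoxb6. The start lay within 5 kb of a ZT0 site for 16 of the 38 genes (42.1%), beside 16.4% of all protein-coding genes. At ZT12 this held for 10 of the 38 (26.3%), beside 11.6%. The median distance from a Hox start to the nearest site was 6.71 kb at ZT0 and 10.9 kb at ZT12, beside 41.7 and 68.0 kb over all protein-coding genes. Neighbouring Hox genes often had the same nearest site, so these distances were not independent of each other. Within 1 kb the share of Hox starts was 10.5% at ZT0, beside 8.59% of all, and 7.89% at ZT12, beside 5.74%. The closeness of Hox genes to listed sites thus showed mainly at several kb and less at the start itself.

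A position common to the clusters appeared at the genes of paralogue group 9, a pattern chosen after the values were seen. In HoxB, HoxC and HoxD a ZT0 site lay between the group 9 and the group 8 gene, 2.95, 3.02 and 2.19 kb before the start of Hoxb8, Hoxc8 and Hoxd8. HoxA has no group 8 gene among the 38, and the next site on the anterior side of Hoxa9 was the one at the upstream start of Hoxa7, 1.29 kb from the annotated end of Hoxa9. The sites of HoxA, HoxC and HoxD were shared between times and that of HoxB was ZT0-only. The best match to the CTCF motif in each of the 4 is shown, read 5′ to 3′ on its own strand in the NCBIM37/mm9 genome sequence, with the 12 positions of the motif core in capitals.
Hoxa7 start, chr6:52171804-52171822, minus strand: attCCAGGAGATGGCagtg
Hoxb9 to Hoxb8, chr11:96140259-96140277, plus strand: tggCCGCTAGATGGCatcc
Hoxc9 to Hoxc8, chr15:102818021-102818039, plus strand: tgaACGCGAGGTGGCgctg
Hoxd9 to Hoxd8, chr2:74540449-74540467, plus strand: tggCCACTAGAGAGCgctg
All 4 matches read in the direction of transcription of their cluster. Without gaps, the HoxB and HoxC matches had 11 of 19 bases in common, and the HoxB and HoxD matches had 12. Over all 136 pairs of the 17 Hox positions the median was 11, between 7 and 16. The HoxC and HoxD matches also had 12 bases in common, and the HoxA match had 10 in common with each of the other 3. The matches between the group 9 and group 8 genes thus shared about as many bases as other pairs of Hox positions. In the 100 bases around the match the HoxB and HoxC sites had 39 identical bases, HoxB and HoxD had 30 and HoxC and HoxD had 23, beside a median of 26.5 and a highest value of 41 over all pairs. The HoxA site had 38 in common with HoxC, 32 with HoxB and 29 with HoxD. The surroundings of the HoxC site were thus near the upper end of the range with HoxB and with HoxA, and those of the HoxD site were nearer the median with all 3. Such values were not particular to this position. The HoxC site had 37 in common with the site between Hoxd13 and Hoxd12 and 36 with the site in Hoxb6. The HoxA site had 41 in common with the site between Hoxd13 and Hoxd12.

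The motif was a weight matrix of 19 positions learned from 11209 listed sites outside the Hox windows. Its search began with the word CCACCAGGGGGC, the 12-base word most enriched in sites, on both strands, over sequence of the same length 5 kb away. The most frequent base at each position of the matrix gave CGGCCACCAGGGGGCGCCG. A match was called at a log-odds score of at least 6.60, which a position of sequence with the base composition of mm9 passes with a p of 0.0001, or at a stricter 12.17, for a p of 0.00001. At the stricter score a match was found in 16 of 16 ZT0 and 10 of 10 ZT12 sites of the Hox windows, beside 94.4% of all ZT0 and 94.9% of all ZT12 sites. In sequence 5 kb away from the listed sites the shares were 5.56% and 5.54%. Because the lists were described as passed through a motif search, a match in each site may come from the way they were made, and this was not tested.

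The Hox sites had motifs of moderate score. The median was 18.20 at both times, beside 19.58 for all ZT0 and 19.79 for all ZT12 sites, and the highest possible score was 29.05. The lowest belonged to the shared site between Hoxd13 and Hoxd12 (14.22) and the shared site at the start of Hoxa7 (14.37). The widest Hox site, at Hoxa7, thus had one of the weakest motifs, above only 12.2% of the ZT0 list, whereas the narrowest at ZT0, the ZT0-only site of 216 bp in Evx2, had a score of 24.25, above 90.9% of the list. The starting word CCACCAGGGGGC itself was present in no Hox site, 0 of 16 at ZT0 and 0 of 10 at ZT12, beside 3.89% and 4.40% of all sites. With shares this low and so few sites, its absence does not set the Hox sites apart from the lists. Each of the 9 shared Hox positions had the same best match at both times, so peaks whose edges moved between ZT0 and ZT12 still covered the same 19 bases.

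At ZT0 the motifs at the posterior end of HoxB and HoxD read against the genes and those at the anterior end read with them, a pattern described after the strands were seen. The change of direction lay at different genes in each. In HoxD it lay between the site before Hoxd12 and the site in Hoxd11. In HoxB it lay across Hoxb9, between the site in Gm53 and the one between Hoxb9 and Hoxb8. Because CTCF motifs are asymmetric, the strand gives each site a direction, here set against that of the Hox genes. In HoxD the matches in Evx2 and between Hoxd13 and Hoxd12 read against the genes, and those in Hoxd11, between Hoxd9 and Hoxd8 and in Hoxd3 read with them. In HoxB the flanking site before Hoxb13 and both sites between Hoxb13 and Hoxb9 read against the genes. The sites between Hoxb9 and Hoxb8, in Hoxb5 and beyond Hoxb1 read with the genes, and the exception was the site in Hoxb6, which read against them. All 3 sites of HoxA and the only site of HoxC read with the genes. None of them lay posterior to paralogue group 10. The Hoxa10 site lay posterior to Hoxa9, however, and so differed from the ZT0 sites posterior to Hoxb9, which read against the genes. Counted over the windows, 10 of 16 ZT0 matches read with the genes and 6 against them, and at ZT12 the counts were 6 and 4. The ZT12-only site in Ttll6 read with the genes, unlike the other sites posterior to Hoxb9, so at ZT12 HoxB had a further exception. The matches inside HoxD that read in opposite directions are shown with the Evx2 match, with the core in capitals.
Evx2, chr2:74493580-74493598, minus strand: ctgCCGCTAGGGGGCgccc
Hoxd13 to Hoxd12, chr2:74511231-74511249, minus strand: cgcCCAGGAGATGGCgagc
Hoxd11, chr2:74524534-74524552, plus strand: cagCCACACGAGGGCgcgc
Hoxd3, chr2:74553975-74553993, plus strand: tgtCCAGGAGGAGGCgctg
The site in Evx2 held 2 matches at the stricter score, both on the minus strand, and the site beyond Hoxb1 held 3, on both strands. Every other Hox site held 1.

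The remaining matches inside HoxA and HoxB are given in the same form. Those of Hoxa5 and Hoxb5, paralogues that each had a site within 1 kb of the start, had 14 of 19 bases in common. The Hoxb5 match had as many in common with that of Hoxa10, which is not its paralogue, and 15 with the one beyond Hoxb1.
Hoxa5 start, chr6:52154654-52154672, minus strand: tctCCAGCGGGTGGCgctc
Hoxa10, chr6:52190536-52190554, minus strand: ccgCCACGAGATGGCgcac
Hoxb13 to Hoxb9, chr11:96096416-96096434, minus strand: cggCCGGCAGGGGTCactg
Gm53, chr11:96123063-96123081, minus strand: cgaCCTCTAGGCGGCgccc
Hoxb6, chr11:96156008-96156026, minus strand: cggACGGTAGATGGCagca
Hoxb5, chr11:96164556-96164574, plus strand: tcgCCGGGAGGTGGCgcgc
Every one of these cores differed from the starting word, and they had scores from 16.96 in Hoxb6 to 20.11 between Hoxb13 and Hoxb9. The Hoxb5 site was shared and the Hoxa5 site was ZT0-only, so a site near the start of paralogues of the same group did not have the same status.

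To show the surroundings of a match, 200 bases are given for the site with the highest motif score inside HoxB, HoxC and HoxD, with the 19 bases of the match in capitals. The top site of HoxA lies in an untranslated region, and its match alone is shown. The strand is that of the match, in the mm9 genome sequence.
Hoxb13 to Hoxb9, ZT0-only, chr11:96096326-96096525, minus strand: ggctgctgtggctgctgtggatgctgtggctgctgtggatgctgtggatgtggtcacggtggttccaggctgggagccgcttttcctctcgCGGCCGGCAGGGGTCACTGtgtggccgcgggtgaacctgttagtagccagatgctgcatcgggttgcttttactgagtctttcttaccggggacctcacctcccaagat
Hoxc9 to Hoxc8, shared, chr15:102817931-102818130, plus strand: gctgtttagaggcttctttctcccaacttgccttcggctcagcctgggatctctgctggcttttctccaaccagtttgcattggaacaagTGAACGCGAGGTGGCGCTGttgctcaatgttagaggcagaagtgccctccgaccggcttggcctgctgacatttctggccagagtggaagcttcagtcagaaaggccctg
Hoxd9 to Hoxd8, shared, chr2:74540359-74540558, plus strand: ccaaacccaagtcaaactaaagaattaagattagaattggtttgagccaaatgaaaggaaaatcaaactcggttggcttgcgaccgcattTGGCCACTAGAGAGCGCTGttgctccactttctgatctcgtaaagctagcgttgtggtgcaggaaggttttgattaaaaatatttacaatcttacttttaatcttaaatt
The HoxB stretch had a GC content of 60.5% with 9 CpG dinucleotides, the HoxC stretch 55.0% with 6 and the HoxD stretch 38.0% with 6. The site between Hoxd9 and Hoxd8 was thus set in sequence rich in A and T, and had the lowest GC content of the ZT0 Hox sites, 35.0% in the 200 bp around its midpoint.

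CpG dinucleotides are where DNA is methylated in mammals, and clusters of them mark many gene starts. In the 200 bp around the midpoint the Hox sites had a median of 12.5 CpG at ZT0 and 12 at ZT12, beside 4 over all sites at either time. Their median GC content was 59.8% at ZT0 and 58.0% at ZT12, beside 53.0% for each whole list. The highest CpG counts, 21 each, were at the Hoxa5 start and in Evx2, both ZT0-only, and the lowest, 1, was at the shared site in the posterior flank of HoxB. Of the Hox sites, 37.5% at ZT0 and 40.0% at ZT12 lay within 1 kb of the start of some annotated gene, beside 20.4% of all sites at either time. The part that closeness to gene starts has in the CpG content was not tested.

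The genome holds many more motif matches than listed sites. The Hox windows contained 170 matches at the stricter score, of which 19 lay in a ZT0 site (11.2%, 95% interval 6.86 to 16.9%) and 10 in a ZT12 site (5.88%, 2.86 to 10.6%). Inside the clusters 13 of 73 matches lay in a ZT0 site (17.8%, 9.84 to 28.5%) and 8 in a ZT12 site (11.0%, 4.85 to 20.5%). Outside the windows the shares were 4.83% and 3.29% of 221121 matches. Most matches to the motif were thus in no list, inside the clusters as elsewhere. A pair of matches inside HoxB, singled out after the values were seen, scored higher than any match in a listed site inside the clusters.
Hoxb3, chr11:96207505-96207523, minus strand: gggCCGGCAGGGGGCggca
Hoxb13 to Hoxb9, chr11:96085317-96085335, minus strand: aggCCAGAAGAGGGCgcca
The match in coding sequence of Hoxb3 scored 23.88, above 88.6% of all ZT0 sites, and lay 43.0 kb from the nearest listed site, in the empty anterior part of HoxB. The other scored 22.56 and lay 11.1 kb from the nearest listed site. A high motif score was thus not enough for a position to be listed at either time.

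Peaks of the shared Hox positions were mostly narrower at ZT12. Of the 9 pairs 7 were narrower at ZT12 and 2 were wider, with a median difference of -63 bp, ZT12 minus ZT0. Over the 5665 positions of the genome where a single site of one list met a single site of the other, 71.2% were narrower, with a median difference of -47 bp. The Hox pairs followed the lists as a whole in this, and width also depends on depth, which is unknown. The greatest difference was at Hoxa10, from 417 bp at ZT0 to 249 bp at ZT12. The wider pairs were those between Hoxc9 and Hoxc8, from 244 to 265 bp, and between Hoxd9 and Hoxd8, from 260 to 310 bp.

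The 7 ZT0-only Hox sites were narrower than the 9 shared ones, with medians of 256 and 298 bp, as they were over the whole ZT0 list, with 277 and 346 bp. Their motif scores were not lower. The median was 18.76 for the ZT0-only and 17.98 for the shared Hox sites, whereas over the whole list it was 19.01 for the ZT0-only and 19.99 for the shared sites. By cluster, the ZT0-only sites were 1 in HoxA, 3 in HoxB, none in HoxC and 3 in HoxD. They lay beside shared sites and not in a block of their own, and each cluster with a ZT0-only site also had shared ones.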

How the data were processed

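CTCF ChIP-seq of liver was analysed from a list of peak positions for each time, made from 2 replicates. Reads were aligned by the authors to NCBIM37/mm9 (Bowtie2), filtered by mapping quality (samtools) and cleared of duplicates (Picard), and MACS2 peaks were called with its default settings. Per the labels, each deposited list holds positions (chromosome, start, end) that passed FIMO. It carries no score and does not separate the replicates. The members and lists were chosen with earlier results of these data known.

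From the positions, sites, overlaps and distances were computed with Python 3.11.15, NumPy 2.4.6, SciPy 1.17.1 and numba 0.67.0. Genome sequence and GENCODE annotation were of the same build, whose chromosomes held all listed sites. Every site in the windows was placed between the Hox genes around its midpoint. Sequences were shown for matches inside the clusters and, chosen after the values were seen, for the flanking site in Evx2. For the best-scoring site inside a cluster 200 bases were shown where that site lay outside untranslated regions, so none for HoxA. The motif matrix (log2 odds against the base composition of mm9) was refined over 3 rounds from 10728 matches, and the best match on either strand gave the strand. The scripts were tested on simulated data. Alternatives covered the flank, the overlap, the length of the ZT0 list and the motif search. A list of 22 other homeobox and HOX cofactor genes was counted in the same way.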

Additional observations from a re-analysis of the deposited data

How the results depend on the processing

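Of 24 alternatives run on the counts, the shared percentages and the percentages with a motif match, 20 stayed within 1.5 times the count or within the 95% interval of the percentage. The other 4 moved. A flank of 250 kb in place of 100 kb gave 30 ZT0 and 16 ZT12 sites, from longer windows. With no flank, 100% of the ZT12 sites were shared, since the single ZT12-only site lies in a flank. A motif match in the 100 bp around the midpoint was found in 60.0% of the ZT12 sites. This search covered less sequence around each site, and the cause of the lower share was not tested. Its share over all listed sites is not given here.

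Among the 20 that stayed within those limits, the same motif search gave 87.5% of the ZT0 sites. With only the 6799 widest ZT0 sites, the lists had the same length. Then 6 of 9 ZT0 sites (66.7%) and 6 of 10 ZT12 sites (60.0%) were shared. The shares over all listed sites under this cut are not given here, so neither value can be read as particular to the Hox windows. This alternative changed both the length of the ZT0 list and the width of its sites, and their parts in the lower ZT12 share cannot be told apart.

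Without a score in the lists, a stricter peak threshold could not be run. No paired analysis was possible because replicates 1 and 2 are joined in each list, and for the same reason neither was left out in turn. Depth is unknown, and counts of 16 and 10 sites limit every percentage.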

Other observations

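Other homeobox genes that stand in clusters, and the genes of HOX cofactors, were counted in the same way. The list of 22 genes held the Dlx, Irx and ParaHox genes (for the last, Gsx1, Pdx1 and Cdx2) and those of the Pbx and Meis families, whose proteins bind DNA together with HOX proteins. Their windows, each gene with 100 kb on both sides, covered 4.53 Mb and held 26 ZT0 sites (5.74 per Mb) and 15 ZT12 sites (3.31 per Mb). The Hox windows held 12.5 and 7.78 per Mb, and all chromosomes with listed sites 3.83 and 2.58. These densities are by length and take no account of how many genes the windows hold. Of the 26 ZT0 sites 14 were shared (53.8%, 95% interval 33.4 to 73.4%), and of the 15 ZT12 sites 14 were shared (93.3%, 68.1 to 99.8%), beside 56.2% and 83.6% of all listed sites, which both intervals held. The most ZT0 sites were near Dlx4, with 7, and Dlx3, with 6, which are neighbours on chromosome 11 and count some sites in common. No site was listed at either time within 100 kb of Dlx5, Dlx6, Irx1, Irx2, Irx6 or Pbx3. Meis1 and Irx5 each had 1 ZT0 site and no ZT12 site.

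Several neighbours of the Hox genes in the windows had no listed site. Evx1, on the posterior side of Hoxa13, had none at either time, whereas Evx2, on the posterior side of Hoxd13, had its ZT0-only site. Evx1 lies farther from Hoxa13 than Evx2 does from Hoxd13, so their places are not equivalent. Mtx2 and Lnp, on either side of HoxD, also had none in the gene. Calcoco2 near HoxB had none, and Ttll6 had the ZT12-only site. Skap1 had none in the part of the gene inside the window. Beyond the window it held a ZT0 site at chr11:96397520-96397753 and a ZT12 site at chr11:96482630-96482900.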
